A study of Mus musculus with 24 samples.

Results

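The genes described here are 42 genes of DNA replication and S phase, out of 45513 genes in the count tables, and all 42 were found by their Ensembl identifiers. The list was given by gene symbol. It holds the proteins that license and fire replication origins, the polymerases and their clamp, the enzymes that make deoxynucleotides, the factors that pack new DNA into chromatin, and regulators of entry into S phase. Messenger RNA was measured in 24 libraries of mouse intestinal epithelium, in 4 groups of 6. Every mouse carried CreERT2 placed after the coding sequence of Atoh1 at its own locus and the R26R tdTom reporter, with the Atoh1 allele homozygous and the reporter heterozygous. The Atoh1 allele was either unchanged, Atoh1(WT)CreERT2 (WT), or Atoh1(9S/T-A)CreERT2 (9S/T-A), in which 9 serine or threonine residues followed by proline had been turned into alanine. Adult C57BL/6 mice of both sexes were given 1 dose of 3 mg tamoxifen, and live cells positive for EpCAM and tdTom were sorted the next day from crypt-enriched fractions of small intestine (SI) or colon. The groups were therefore the SI and the colon of each genotype, with library numbers 2 to 7 in each, of which 3 were female and 3 male. The reporter marks cells in which Atoh1, the transcription factor of the secretory lineage, was expressed, so mature goblet and Paneth cells were sorted together with their dividing precursors. In such bulk samples, fewer cells in S phase and less RNA per S phase cell cannot be told apart. The labels do not say what a library number marks. The series text gives 6 mice in all, with both tissues taken from each, whereas 2 genotypes with 6 numbers each would make 12 animals. Which libraries share an animal is therefore not known here, n counts libraries, and p-values measure only the spread between these libraries, which may be technical, and are too small where libraries of a group share an animal.

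Before a cell copies its genome, ORC, Cdc6 and Cdt1 load the ring of Mcm2 to Mcm7 onto origins. At the start of S phase, kinases turn this ring into an active helicase by adding Cdc45 and the GINS complex, and the polymerases then work behind it on the Pcna clamp. Many of these genes are transcribed in a wave at the border of G1 and S phase under E2F transcription factors, which cyclin E and its kinase release from the retinoblastoma protein. In the intestinal crypt, this machinery is used by stem cells and by the transit-amplifying and early secretory precursors above them, while mature goblet and Paneth cells no longer divide. With these libraries the study asked how ATOH1 that escapes phosphorylation alters the maturation of cells already committed to the secretory lineage. Division was addressed there by other assays, and the transcripts of its machinery in these libraries are described here.

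RefSeq promoter windows (GRCm38.p6) were matched by symbol for 34 of the 42 members. In the 250 bases before the start, 8 of these 34 genes (23.5%) held at least 1 of the E2F-type words TTTCCCGC, TTTCGCGC, TTTGCCGC and TTTGGCGC on either strand, against 2.16% of the 27025 genes in the table. TTTCCCGC was found in 3 member genes, TTTCGCGC in 4, TTTGGCGC in 3 and TTTGCCGC in 0. The word CCAAT, on either strand, was in 55.9% of the member genes and in 37.5% of all genes. A match is a description of the letters, and no binding was measured. The windows of 4 members with such a word are shown because their transcripts are among those described below. That of Ung follows, whose level went the other way between tissues. Its window held no such word, and neither did those of Mcm10, Fen1, Rrm2 and E2f8, which were called lower in WT colon. Whether a word goes with a level was not tested. Sequences run 5′ to 3′ on the strand of the gene and end at the base before the start, with E2F-type words in capitals.
Cdc6, chr11:98907901-98908150, plus strand: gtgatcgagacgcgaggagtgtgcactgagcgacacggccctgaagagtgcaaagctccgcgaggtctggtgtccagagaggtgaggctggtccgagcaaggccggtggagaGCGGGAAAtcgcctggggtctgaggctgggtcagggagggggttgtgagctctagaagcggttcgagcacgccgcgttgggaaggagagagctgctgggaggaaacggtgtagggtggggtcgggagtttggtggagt
Mcm5, chr8:75109259-75109508, plus strand: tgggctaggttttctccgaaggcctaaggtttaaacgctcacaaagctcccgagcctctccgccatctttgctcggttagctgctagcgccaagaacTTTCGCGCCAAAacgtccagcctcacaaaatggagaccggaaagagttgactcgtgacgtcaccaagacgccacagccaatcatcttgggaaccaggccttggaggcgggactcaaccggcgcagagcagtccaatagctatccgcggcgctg
Mcm6, chr1:128359706-128359955, minus strand: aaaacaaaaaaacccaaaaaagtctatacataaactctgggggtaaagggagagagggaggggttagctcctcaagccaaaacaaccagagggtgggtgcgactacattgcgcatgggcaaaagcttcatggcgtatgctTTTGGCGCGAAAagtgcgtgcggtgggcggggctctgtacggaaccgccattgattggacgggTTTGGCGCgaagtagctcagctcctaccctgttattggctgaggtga
Uhrf1, chr17:56304063-56304312, plus strand: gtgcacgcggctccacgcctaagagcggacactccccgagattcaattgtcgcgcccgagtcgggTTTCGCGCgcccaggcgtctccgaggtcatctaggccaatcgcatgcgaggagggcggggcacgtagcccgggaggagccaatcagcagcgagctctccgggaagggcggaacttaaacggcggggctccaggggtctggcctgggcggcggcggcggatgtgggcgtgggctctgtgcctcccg
Ung, chr5:114130185-114130434, plus strand: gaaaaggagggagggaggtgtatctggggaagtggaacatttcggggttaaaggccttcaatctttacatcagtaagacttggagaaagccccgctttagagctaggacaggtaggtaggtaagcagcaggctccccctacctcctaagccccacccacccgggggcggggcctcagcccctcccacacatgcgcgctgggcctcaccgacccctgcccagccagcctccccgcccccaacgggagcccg
Starts are those of RefSeq and need not be those of the count tables. The word in Cdc6 began 138 bases before its RefSeq start, and this window lies inside the gene as the count tables place it. Uhrf1 has 2 RefSeq windows. The one at the annotated gene start, chr17:56303087-56303336, held no such word, and the word shown lies 185 bases before the other start, inside the gene. In Mcm5, TTTCGCGC on the plus strand began 153 bases before the start and overlapped TTTGGCGC on the other strand. Mcm6 held a like overlapping pair from 110 bases before the start and a further TTTGGCGC at 47 bases. The other genes with a word were Gins3, Mcm7, Pola1 and Rfc3. Among 42 matched genes of a list of other replication genes the share was 26.2%, and among 25 matched genes of G2 phase and mitosis it was 4%, while 80% of those 25 held CCAAT.

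Total counts ranged from 36.0 to 65.8 M (in units of 1e6 counts) per library, and the lowest count of any member in any library was 52 (Gins3), so every member passed the filter on low counts in every comparison. Defining markers of the sorted cells were present in both tissues. Epcam had group means of 985 to 1040 CPM (counts per 1e6 counts of a library, scaled by TMM factors) and Atoh1 of 75.0 to 103.0 CPM. The 9 genes that mark the sorted secretory population summed to 313000 to 504000 CPM in SI but to 35400 to 81000 CPM in colon. The 6 Paneth genes summed to 41500 to 84200 CPM in SI and to 174 to 1470 CPM in colon. The 10 leukocyte genes summed to 1550 to 2870 CPM in SI, nearly all of it Lyz2 (group means of 2060 and 2320 CPM), and to 7.16 to 10.6 CPM in colon, where 8 of 10 were under 1 CPM. Ptprc had group means of 4.14 and 5.37 CPM in SI and of 0.424 and 0.572 CPM in colon, while Itgam had 2.90 and 4.41 CPM in SI and 4.55 and 5.34 CPM in colon.

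Levels between genes were compared per kilobase of exon. In WT SI the highest member was Pcna, the sliding clamp, with 23.8 CPM per kilobase, followed by Mcm6 with 17.1 and Rfc2, a subunit of the clamp loader, with 16.7. The lowest was Exo1, a repair exonuclease, with 0.704 CPM per kilobase. In WT colon the top of the order was Rfc2 with 17.2 and Pcna with 16.8 CPM per kilobase, and Exo1 was again lowest with 0.267. Some counts are less certain than others. Of the 50-base windows in the annotated transcripts, 19.1% of those of Pcna occur also in a pseudogene, Pcna-ps2, 18.1% of those of Mcm7 in transcripts of 3 other genes, among them the microRNA genes Mir25 and Mir93 that lie within it, and 15.4% of those of Uhrf1 in transcripts of 2 other genes. For each of the other members the share was at most 5.25%.

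Among the licensing factors, Cdc6 (ENSMUSG00000017499, chromosome 11, 98907801 to 98923940) loads the helicase ring. It had 6.78, 9.84 and 10.4 CPM (lowest, median and highest of 6 libraries) in WT SI, and in the SI of 9S/T-A 5.57, 6.39 and 8.47 CPM. In colon it had 1.93, 2.81 and 3.66 CPM in WT and 2.24, 3.55 and 7.65 CPM in 9S/T-A. Every WT colon library thus lay below every WT SI library, while the genotypes overlapped in both tissues. Its partner Cdt1 (ENSMUSG00000006585, chromosome 8, 122568015 to 122573128) had 17.8, 23.2 and 30.2 CPM in the SI of WT, 13.9, 16.8 and 23.4 in that of 9S/T-A, 10.7, 12.9 and 16.7 in WT colon, and in the colon of 9S/T-A 11.0, 17.6 and 21 CPM.

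Of the ring itself, Mcm2 (ENSMUSG00000002870, chromosome 6, 88883475 to 88898780) had 31.3, 38.8 and 47.8 CPM in the SI of WT, 23.6, 27.0 and 41.7 in that of 9S/T-A, 19.7, 26.5 and 31.5 in WT colon, and in the colon of 9S/T-A 22.8, 30.7 and 45.0 CPM. Mcm5 (ENSMUSG00000005410, chromosome 8, 75109528 to 75128439) can be given library by library, in the order of the numbers 2 to 7. It had 31.1, 42.5, 51.0, 38.7, 48.0 and 32.7 CPM in WT SI, and in the SI of 9S/T-A 42.2, 22.8, 42.9, 28.4, 26.4 and 22.3 CPM. In colon it had 17.6, 30.6, 26.0, 17.2, 27.7 and 15.8 CPM in WT and 26.3, 32.8, 45.7, 18.5, 39.9 and 17.2 CPM in 9S/T-A. The male libraries 3, 4 and 6 were above the female libraries 2, 5 and 7 in WT SI and in the colon of both genotypes, and in 9S/T-A SI the female library 2 was nearly as high as the male library 4. Gins2 (ENSMUSG00000031821, chromosome 8, 120578633 to 120589304), a subunit of the GINS part of the active helicase, had medians of 6.07 CPM in WT SI, 4.12 in 9S/T-A SI, 3.46 in WT colon, and in the colon of 9S/T-A 5.67 CPM.

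Pcna (ENSMUSG00000027342, chromosome 2, 132249162 to 132253314) had 49.0, 56.8 and 67.3 CPM in the SI of WT, 41.0, 47.0 and 64.1 in that of 9S/T-A, 34.3, 39.7 and 47.9 in WT colon, and in the colon of 9S/T-A 36.5, 46.9 and 59.4 CPM. The smaller subunit of ribonucleotide reductase, Rrm2 (ENSMUSG00000020649, chromosome 12, 24708241 to 24714146), which supplies deoxynucleotides, had 15.7, 19.4 and 28.0 CPM in the SI of WT, 11.1, 14.2 and 21.9 in that of 9S/T-A, 5.91, 7.34 and 10.8 in WT colon, and in the colon of 9S/T-A 6.24, 13.2 and 17.1 CPM. Its WT colon libraries did not reach the lowest WT SI library, and the 9S/T-A colon libraries spanned the gap between them. Thymidylate synthase, Tyms (ENSMUSG00000025747, chromosome 5, 30058202 to 30073617), was on a different course, with medians of 21 CPM in WT SI, 16.2 in 9S/T-A SI, 22.7 in WT colon, and in the colon of 9S/T-A 23.0 CPM.

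Uhrf1 (ENSMUSG00000001228, chromosome 17, 56303321 to 56323486), which carries DNA methylation over to the new strand, is given in full as well. In library order it had 29.6, 39.4, 49.0, 37.9, 44.0 and 33.7 CPM in WT SI, and in the SI of 9S/T-A 42, 21.8, 35.6, 26.9, 23.0 and 23.2 CPM. In colon it had 12.0, 22.8, 17.2, 13.5, 21.5 and 10.2 CPM in WT and 21.6, 32.2, 37.3, 14.1, 33.8 and 13.6 CPM in 9S/T-A. The 3 male libraries of 9S/T-A colon stood at 32.2 to 37.3 CPM and its 3 female libraries at 13.6 to 21.6 CPM. Slbp (ENSMUSG00000004642, chromosome 5, 33634952 to 33652574), which binds the stem-loop of histone messenger RNA, was nearly level, with medians of 33.4, 31.9, 30.7 and 32.2 CPM in SI (WT, then 9S/T-A) and colon (WT, then 9S/T-A).

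Cyclin E1, Ccne1 (ENSMUSG00000002068, chromosome 7, 38097984 to 38107534), had 3.22, 4.34 and 6.17 CPM in the SI of WT, 2.01, 3.16 and 4.09 in that of 9S/T-A, 1.60, 1.98 and 2.58 in WT colon, and in the colon of 9S/T-A 1.72, 2.81 and 4.37 CPM. E2f1 (ENSMUSG00000027490, chromosome 2, 154559407 to 154569892), a transcription factor of the G1 to S transition, had medians of 6.26, 4.53, 3.46 and 4.80 CPM in the same order. Ung (ENSMUSG00000029591, chromosome 5, 114130386 to 114139323), which cuts uracil out of DNA, had 9.59, 11.4 and 13.2 CPM in WT SI, and in the SI of 9S/T-A 7.93, 8.49 and 12.0, against 15.7, 17.1 and 20.5 in WT colon, and in the colon of 9S/T-A 17.9, 19.3 and 23.8 CPM. It was thus higher in every colon library than in every SI library.

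**Figure D1:**
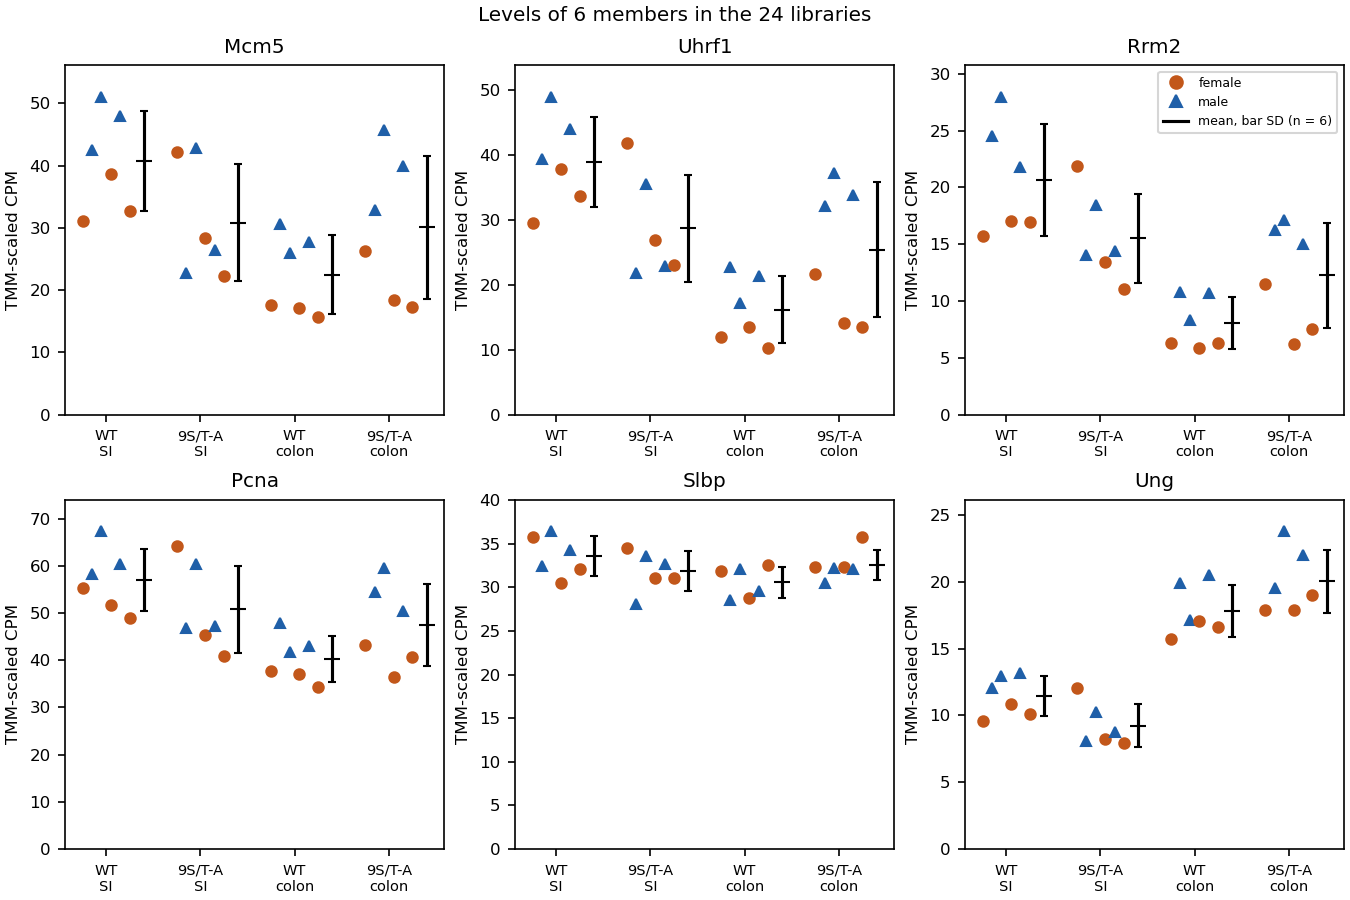
TMM-scaled CPM (y axis, from 0) of 6 members in each of the 24 libraries, by group on the x axis. Circles are female and triangles male libraries in the order of their numbers, and the black bar is the mean and SD of the 6 libraries. Mcm5, Uhrf1, Rrm2 and Pcna had their highest mean in WT SI and their lowest in WT colon, Slbp was nearly level, and Ung was higher in both colon groups.

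As a summary, the mean of log2(CPM + 1) over the 42 members was taken in each library and given no test. It was 4.13 ± 0.185 (SD, n = 6) in WT SI, 3.83 ± 0.246 in 9S/T-A SI, 3.45 ± 0.215 in WT colon and 3.71 ± 0.293 in 9S/T-A colon. In library order the values were 3.90, 4.16, 4.38, 4.08, 4.29 and 3.97 in WT SI, and in the SI of 9S/T-A 4.20, 3.66, 4.08, 3.70, 3.75 and 3.61. In colon they were 3.29, 3.69, 3.48, 3.28, 3.71 and 3.24 in WT and 3.62, 3.87, 4.06, 3.32, 3.96 and 3.46 in 9S/T-A. The 9S/T-A mean was 0.30 lower than that of WT in SI, more than the SD of either group (0.185 and 0.246). In colon it was 0.27 higher, between the SDs of WT (0.215) and 9S/T-A (0.293). The library values of the genotypes overlapped in both tissues. Among females alone the difference was -0.14 in SI and 0.20 in colon, and among males -0.45 and 0.33. In SI, 5 of 6 9S/T-A libraries were below the WT mean, and in colon 5 of 6 were above it. All 6 WT colon libraries were below the WT SI mean (difference -0.68), while the 9S/T-A colon libraries were split 3 and 3 about the 9S/T-A SI mean (difference -0.12, with -0.37 among females and 0.13 among males).

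**Figure D2:**
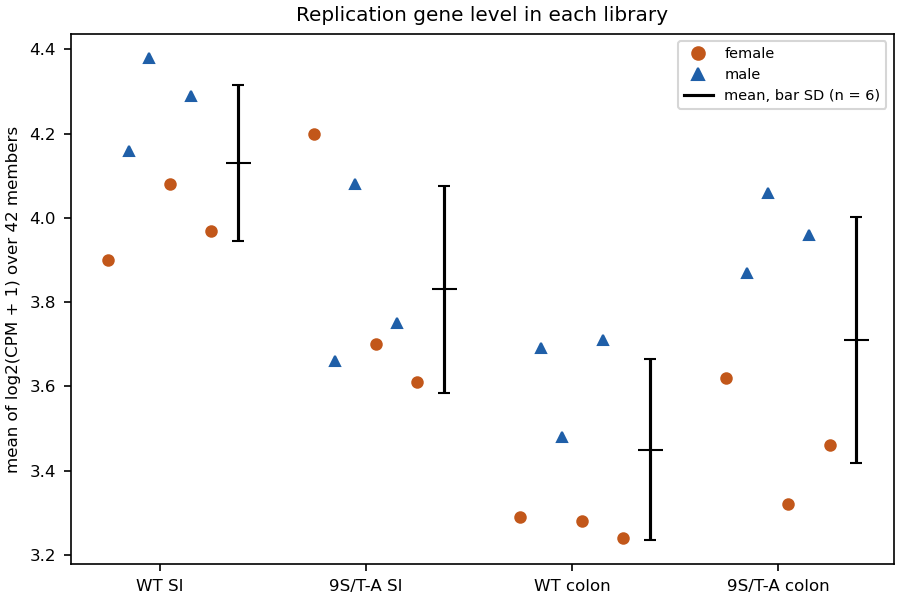
Mean of log2(CPM + 1) over the 42 members (y axis, not from 0) in each library, by group on the x axis, with female libraries as circles, male libraries as triangles and the mean ± SD (n = 6) in black. Male libraries were above female ones in 3 groups, and the highest library of 9S/T-A SI was the female number 2 at 4.20.

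Library 2 of 9S/T-A SI was the one most often at the top of its group. It had the highest level in its group for 35 of 42 members, while library 2 of WT SI had the lowest for 26. Library 4 was highest for 28 members in WT SI and for 27 in 9S/T-A colon. With the group means taken out, the correlation of a member with the mean of the others over the 24 libraries had a median of 0.89. It ranged from 0.06 (Slbp) to 0.97 (Mcm5). Most members thus moved together from library to library, and the counts of members below are not counts of independent genes.

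In SI, all 42 members were lower in 9S/T-A than in WT by their fitted change, and none passed the test. The median log2 fold change of the members was -0.34, with a range from -0.51 (Ccne1) to -0.02 (Pola2), while 50% of the 16236 genes tested were below 0 and the median of all genes was 0.00. By edgeR's quasi-likelihood test with Benjamini-Hochberg adjustment over all genes, 0 members were called lower and 0 higher, where 0.905% and 1.03% of all genes were, and adjusted p ranged from 0.116 to 0.916. At an unadjusted p under 0.05 there were 23 members lower and 0 higher, against 8.33% of all genes lower and 7.41% higher. DESeq2 called 2 members lower, Mcm4 and Cdc6, where it called 776 of 27154 genes in either direction. The members' levels in the 2 genotypes overlapped for every member, where 0.992% of all genes were lower and 1.08% higher in 9S/T-A without overlap.

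By role, the licensing factors had a median log2 fold change of -0.37 in SI. Cdc6 had -0.46 (SE 0.14, edgeR adjusted p = 0.123), Cdt1 -0.38 (SE 0.159, adjusted p = 0.263), Mcm2 -0.37 (SE 0.154, adjusted p = 0.257) and Mcm5 -0.40 (SE 0.184, adjusted p = 0.303). The G1 to S regulators had the lowest median of the roles, -0.42, with Ccne1 at -0.51 (SE 0.208, adjusted p = 0.244) and E2f1 at -0.38 (SE 0.137, adjusted p = 0.188). For nucleotide supply the median was -0.34, with Rrm2 at -0.42 (SE 0.178, adjusted p = 0.27) and Tyms at -0.30 (SE 0.142, adjusted p = 0.319). The clamp, its loader and single-strand binding had the smallest median change, -0.22, with Pcna at -0.17 (SE 0.115, adjusted p = 0.515). Gins2 had -0.34 (SE 0.216, adjusted p = 0.475), Uhrf1 -0.44 (SE 0.17, adjusted p = 0.221) and Slbp -0.08 (SE 0.0725, adjusted p = 0.642). None of these passed the adjustment over all genes tested.

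The counts in SI depended on which library was left out. Without 9S/T-A SI library 2, edgeR called 5 members lower (Mcm4, Rrm1, E2f8, E2f1 and Pold1), among 550 of 16399 genes called in all. There, 38 members had an unadjusted p under 0.05. That count, 23 with all libraries, was 9 without WT SI library 4 and 11 without WT SI library 6. It was 13 without 9S/T-A SI library 3, 5 or 7, and 15 without 9S/T-A SI library 6. Without WT SI library 3, 5 or 2 it was 18, 21 and 27, and without WT SI library 7 or 9S/T-A SI library 4 it was 29. Beside the members, all 30 genes of G2 phase and mitosis were below 0 in SI (median -0.40), and the Paneth genes had a median of -0.77, with 3 of 6 called lower. The tuft genes had -0.93 (1 of 4 tested called lower), the stem cell genes -0.16 (0 of 7 called), the absorptive genes 0.40 (0 of 11 called) and the genes of the sorted population 0.26 (0 of 9 called). The enteroendocrine genes had -0.58 (0 of 6 called), the leukocyte genes -0.25 (0 of 7 tested called) and the stromal genes 0.04 (1 of 3 tested called, Vim, which was lower). The part of these cell types in the members' levels was not tested.

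In colon the fitted changes had the other sign. The log2 fold change was above 0 for 40 of 42 members, with Gins4 and Rfc2 at -0.03, a median of 0.34 and a maximum of 0.67 (Uhrf1), while 51.7% of the 16997 genes tested were above 0. No member was called by edgeR (0 higher and 0 lower, where 0.229% and 0.0883% of all genes were), and adjusted p ranged from 0.418 to 1. At an unadjusted p under 0.05 there were 19 members higher and 0 lower, against 4.37% of all genes higher and 4.44% lower. DESeq2 called 0 members, where it called 248 of 27520 genes, and gave 26 members an unadjusted p under 0.05. Again the genotypes overlapped for every member, where 0.488% of all genes were higher and 0.418% lower in 9S/T-A without overlap.

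Uhrf1 had a fitted log2 change of 0.67 in colon (SE 0.268, edgeR adjusted p = 0.462), Rrm2 of 0.62 (SE 0.248, adjusted p = 0.457) and Ccne1 of 0.56 (SE 0.233, adjusted p = 0.499). For Cdc6 it was 0.54 (SE 0.264, adjusted p = 0.588), for E2f1 0.49 (SE 0.2, adjusted p = 0.475) and for Mcm5 0.44 (SE 0.241, adjusted p = 0.664). The SE of these genes was larger in colon than in SI, where the same genes had SEs from 0.137 to 0.208. Smaller values were found for Gins2 at 0.40 (SE 0.205, adjusted p = 0.63), Cdt1 at 0.34 (SE 0.154, adjusted p = 0.56), Mcm2 at 0.33 (SE 0.16, adjusted p = 0.588) and Pcna at 0.26 (SE 0.112, adjusted p = 0.533). Slbp had 0.11 (SE 0.0667, adjusted p = 0.733) and Tyms 0.09 (SE 0.0997, adjusted p = 0.952). With sex as a covariate, 2 members were called higher, Mcm3 and Uhrf1, among 89 of 16997 genes called in all. With the library number as a block, 12 were called higher, among 385 of 16997 genes called in all. The labels do not say what a number marks (see the closing section). The count of 19 at an unadjusted p under 0.05 was 2 without 9S/T-A colon library 6 or WT colon library 2. It was 4 without 9S/T-A library 4 or WT library 5, 7 without 9S/T-A library 3, and 10 without WT library 7. Without WT library 4, 6 or 3 it was 15, 25 and 28, and without 9S/T-A library 2, 7 or 5 it was 21, 24 and 34. The 30 genes of G2 phase and mitosis were all above 0 in colon (median 0.37). The Paneth genes had a median of 0.67, the genes of the sorted population of 0.24, the absorptive genes of -0.13, the stem cell genes of -0.15, the leukocyte genes of -0.21, the stromal genes of -0.22, the tuft genes of -0.45 and the enteroendocrine genes of -0.48. In colon 0 genes of these lists were called, and their part in the members' levels was not tested.

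**Figure D3:**
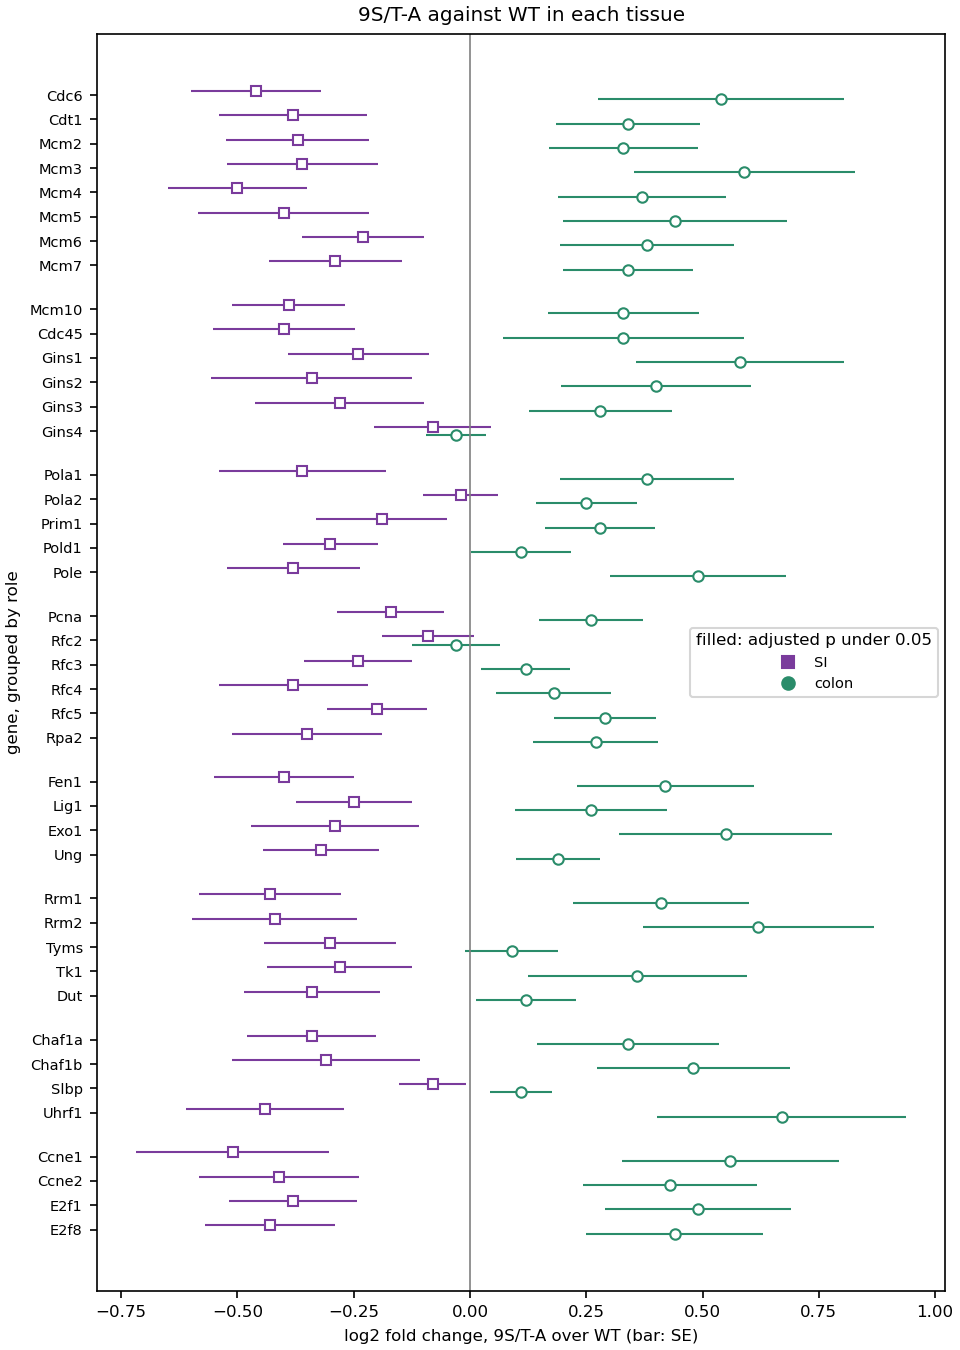
Log2 fold change of 9S/T-A over WT (x axis, bars are SE) for the 42 members, grouped by role on the y axis, in SI (squares) and colon (circles), with 6 libraries per group. No symbol is filled, since no member had an adjusted p under 0.05. The SI values lie below 0 for all members and the colon values above 0 for 40.

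Whether the genotype difference itself differed between tissues was tested with a product term over all 24 libraries. The colon effect minus the SI effect was above 0 for 42 of 42 members (47.3% of the 17953 genes tested), with a median of 0.68 on the log2 scale and a range from 0.02 (Gins4) to 1.09 (Uhrf1). By edgeR 0 members were called, where 0.29% of all genes were called higher and 0.123% lower, and adjusted p ranged from 0.143 to 0.992. An unadjusted p under 0.05 was found for 36 members higher and 0 lower, against 5.55% of all genes higher and 4.14% lower. DESeq2 called 1 member, Pole, where it called 255 of 29201 genes. Among the genes given in full, the largest values were 1.09 for Uhrf1 (SE 0.34, edgeR adjusted p = 0.193), 1.05 for Ccne1 (SE 0.326, adjusted p = 0.193), 1.02 for Rrm2 (SE 0.324, adjusted p = 0.206) and 0.98 for Cdc6 (SE 0.312, adjusted p = 0.202). E2f1 had 0.86 (SE 0.252, adjusted p = 0.154), Mcm5 0.82 (SE 0.324, adjusted p = 0.357), Gins2 0.72 (SE 0.316, adjusted p = 0.438), Cdt1 0.69 (SE 0.236, adjusted p = 0.248) and Mcm2 0.68 (SE 0.237, adjusted p = 0.265). Lower values were those of Pcna with 0.40 (SE 0.171, adjusted p = 0.405), Tyms with 0.37 (SE 0.181, adjusted p = 0.517) and Slbp with 0.17 (SE 0.0884, adjusted p = 0.58). Without 9S/T-A colon library 5, 2 members were called, E2f8 and Pole, among 105 of 18103 genes. With sex as a covariate 1 was called, Mcm4, among 108 of 17953 genes. With the library number as a block, 13 were called higher, among 342 of 17953 genes called in all (see the closing section). In the mean over members the difference of differences was 0.56, with 0.34 between female and 0.78 between male libraries. Beside it, the Paneth genes had a median of 1.22 for the product term, with 1 of 6 called higher. The enteroendocrine genes had a median of -0.13, though the 1 of 6 that was called, Tac1, was higher. The part of these lists was not tested.

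Between tissues, WT cells of the colon had less of most replication transcripts than WT cells of the SI with TMM scaling, and this split changed with plain library totals (below). Of the 42 members, 36 were called lower and 1 higher (Ung), where 30.4% of all genes were called lower and 33.1% higher. Without overlap between the groups, 28 members were lower in colon (19.6% of all genes), and Ung was higher (23.9%). The median log2 fold change of the members was -0.83, against 0.03 for the 16979 genes tested. Gins4, Rfc2, Rfc3, Tyms and Dut were not called.

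Cdc6 fell most, by 1.74 on the log2 scale (SE 0.161, edgeR adjusted p = 1.57e-07), and all 8 licensing factors fell. Cdt1 fell by 0.84 (SE 0.138, adjusted p = 7.14e-05), Mcm5 by 0.89 (SE 0.176, adjusted p = 0.000383) and Mcm2 by 0.62 (SE 0.128, adjusted p = 0.000555). In the helicase, Gins1 had a fitted log2 change of -1.59 (SE 0.17, adjusted p = 8.39e-07) and Mcm10, a factor that starts the active helicase, of -1.52 (SE 0.148, adjusted p = 2.85e-07), while Gins2 had -0.62 (SE 0.2, adjusted p = 0.0129). Pole, the catalytic subunit of the leading-strand polymerase, had -1.37 (SE 0.145, adjusted p = 7.45e-07). At the replication fork, Fen1, which trims the flaps of Okazaki fragments, had -1.34 (SE 0.137, adjusted p = 5.25e-07) and Exo1 -1.44 (SE 0.181, adjusted p = 4.83e-06). Pcna had a smaller decrease, -0.54 (SE 0.0936, adjusted p = 0.000126).

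Nucleotide supply was uneven in WT. Rrm2 had a fitted log2 change of -1.39 (SE 0.189, edgeR adjusted p = 1.04e-05), while Tyms had 0.01 (SE 0.123, adjusted p = 0.926). Uhrf1 had -1.30 (SE 0.187, adjusted p = 1.84e-05) and Slbp -0.17 (SE 0.0667, adjusted p = 0.0361), both called. Of the G1 to S regulators, E2f8, a repressor of E2F targets, had -1.35 (SE 0.144, adjusted p = 8.09e-07), Ccne1 -1.19 (SE 0.191, adjusted p = 5.62e-05) and E2f1 -0.84 (SE 0.129, adjusted p = 3.87e-05). Ung rose by 0.60 (SE 0.103, adjusted p = 0.000101). Secretory transcripts take up far more of an SI library than of a colon library (the sums above), and the direction of the members depended on how this was scaled. With plain library totals in place of TMM factors, the median of all genes moved to 0.74 and 11 members were called lower and 8 higher. In that fit 14144 of the 16979 genes tested were called in either direction, a larger share than of the members. The members' median stayed 0.86 below that of all genes under both scalings.

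In 9S/T-A the fitted tissue differences lay closer to 0. The members' median log2 fold change was -0.14 (0.04 for the 16938 genes tested). Here 8 members were called lower and 2 higher, where 28.0% of all genes were called lower and 32.9% higher. The share of members called was thus below that of all genes. Only 3 members were lower in colon without overlap, Mcm10, Gins1 and Pola2, against 18.4% of all genes, and 1, Ung, was higher (22.7%). The product term above is the test of the difference between the genotypes, and it called no member.

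Mcm10 had a fitted log2 change of -0.81 between colon and SI in 9S/T-A (SE 0.144, edgeR adjusted p = 0.000165), Gins1 of -0.78 (SE 0.212, adjusted p = 0.00476) and Cdc6 of -0.76 (SE 0.251, adjusted p = 0.0163). The other called falls were those of Exo1 with -0.61 (SE 0.228, adjusted p = 0.0303), Fen1 with -0.53 (SE 0.205, adjusted p = 0.0352), Pole with -0.52 (SE 0.188, adjusted p = 0.0272), Pola2, a subunit of the primase-polymerase complex, with -0.51 (SE 0.0855, adjusted p = 9.44e-05), and E2f8 with -0.50 (SE 0.189, adjusted p = 0.0339). Ung rose by 1.09 (SE 0.119, adjusted p = 1.26e-06) and Tyms by 0.39 (SE 0.125, adjusted p = 0.013). Among those not called, Rrm2 had -0.37 (adjusted p = 0.2), Uhrf1 -0.20 (adjusted p = 0.51), Cdt1 -0.14 (adjusted p = 0.508), Ccne1 -0.13 (adjusted p = 0.667) and Pcna -0.13 (adjusted p = 0.438). Mcm5 had -0.06 (adjusted p = 0.835), Mcm2 0.06 (adjusted p = 0.791), Gins2 0.10 (adjusted p = 0.717), E2f1 0.02 (adjusted p = 0.927) and Slbp 0.00 (adjusted p = 0.984). Most of these directions turned with plain library totals. There, 33 members were called higher and 0 lower, with a median of all genes of 0.85. In that fit 14199 of the 16938 genes tested were called in either direction, a larger share than of the members. The number called lower was 5 without 9S/T-A colon library 2, 5 or 7, and 4 without 9S/T-A SI library 2 or 4.

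**Figure D4:**
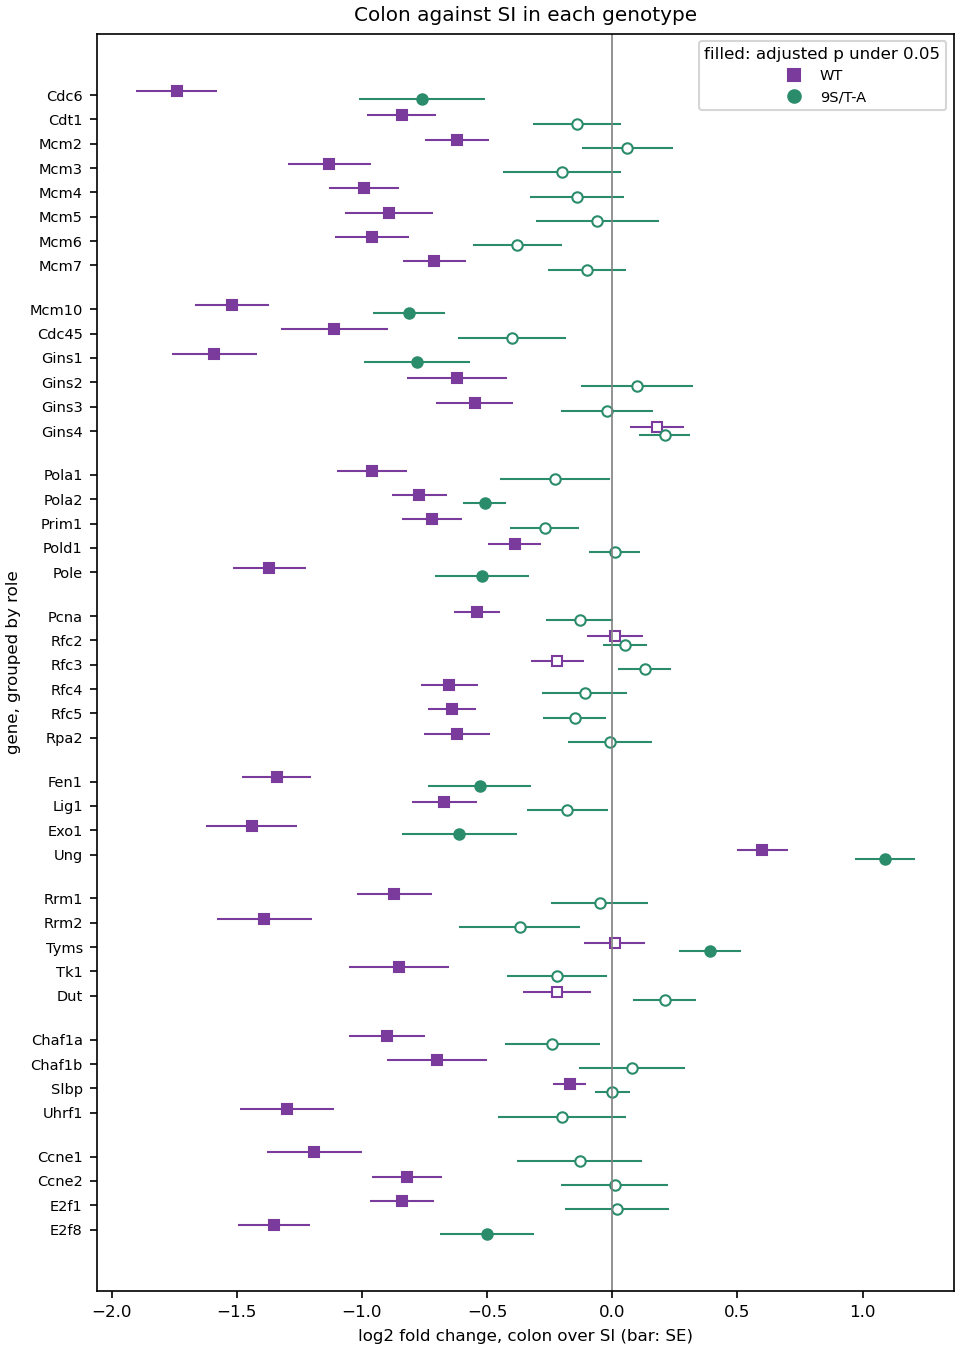
Log2 fold change of colon over SI (x axis, bars are SE) for the 42 members, grouped by role on the y axis, in WT (squares) and 9S/T-A (circles), with 6 libraries per group and filled symbols for an adjusted p under 0.05. In WT, 36 members were called lower and Ung higher, and in 9S/T-A 8 were called lower, with Ung and Tyms higher. The values use TMM scaling. With plain library totals 33 members were called higher in 9S/T-A colon (14199 of 16938 genes were called in either direction). In WT colon 8 were called higher (14144 of 16979 genes in either direction), while 25 of 42 members had a log2 fold change below 0.

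A list of 48 other replication genes, none of them members, was counted in the same fits. In SI 40 of 48 were below 0 in 9S/T-A (median -0.16) and in colon 43 of 48 were above 0 (median 0.18), with 0 called in either, and 13 and 16 at an unadjusted p under 0.05. For the product term the median was 0.39 and 0 were called. Between tissues, again with TMM scaling, 32 were called lower and 5 higher in WT, where 30.4% and 33.1% of all genes were. In 9S/T-A, 15 were called lower and 7 higher, where 28.0% and 32.9% of all genes were. In WT the largest falls were those of Samhd1, a phosphohydrolase that degrades deoxynucleotides, with a fitted log2 change of -2.66 (SE 0.0969, edgeR adjusted p = 3.15e-12), and of E2f2 with -1.87 (SE 0.102, adjusted p = 3.08e-10). Orc1, a subunit of the origin recognition complex, rose, by 1.25 (SE 0.174, adjusted p = 1.39e-05), as did Rnaseh2b by 0.59 (SE 0.12, adjusted p = 0.000478). The 30 genes of G2 phase and mitosis were all below 0 in both genotypes (median -1.13 in WT and -0.40 in 9S/T-A). Of them, 30 were called lower in WT and 11 in 9S/T-A, where 30.4% and 28.0% of all genes were.

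The libraries of male numbers had higher replication gene levels than those of female numbers in 3 of the 4 groups. This comparison was added after the values were seen. The mean over members was 0.30 higher in males in WT SI (4.28 ± 0.109 against 3.98 ± 0.0905, SD, n = 3 each), 0.36 higher in WT colon (3.63 ± 0.129 against 3.27 ± 0.0254) and 0.49 higher in 9S/T-A colon (3.96 ± 0.0959 against 3.47 ± 0.15). In these 3 groups the male and female ranges did not overlap. In 9S/T-A SI the difference was -0.01 (3.83 ± 0.223 against 3.84 ± 0.319). Counted by member, all 3 male libraries were above all 3 female libraries for 23 members in WT SI (6.34% of all genes), 30 in WT colon (6.89%), 31 in 9S/T-A colon (7.18%) and 0 in 9S/T-A SI (2.68%). The reverse was found for 1 member, Slbp, in 9S/T-A colon, where 6.88% of all genes were lower in all 3 male libraries. It was found for 0 members in WT SI (7.29% of all genes), 9S/T-A SI (2.48%) and WT colon (4.58%).

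In colon, edgeR with genotype in the model called 13 of 42 members higher in males and 0 lower, where 0.253% of the 16997 genes tested were called higher and 0.0412% lower. Over all genes tested, 50 were called. All 6 subunits of the Mcm2 to Mcm7 ring were among them, with Uhrf1, Rrm2, Ccne1, Pcna, the ligase Lig1 and the histone chaperone subunits Chaf1a and Chaf1b. The members' median log2 fold change of male over female was 0.49, with 41 of 42 above 0 (49.6% of all genes). At an unadjusted p under 0.05 there were 34 members higher and 0 lower (9.21% and 11.2% of all genes).

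Uhrf1 had 27.5 CPM at the median of 6 male colon libraries and 13.6 CPM at that of 6 female ones, a fitted log2 change of 0.91 (SE 0.119, edgeR adjusted p = 0.00397). Mcm3 had a fitted log2 change of 0.83 (SE 0.0926, adjusted p = 0.000884) and Mcm5 of 0.82 (SE 0.105, adjusted p = 0.00359). Rrm2 had 0.80 (SE 0.131, adjusted p = 0.0302), Ccne1 0.76 (SE 0.124, adjusted p = 0.0293), Chaf1b 0.65 (SE 0.115, adjusted p = 0.0368), Chaf1a 0.64 (SE 0.101, adjusted p = 0.0242) and Mcm6 0.59 (SE 0.103, adjusted p = 0.0363). Mcm2 had 0.53 (SE 0.0745, adjusted p = 0.00692). Pcna had 0.35 (SE 0.0655, adjusted p = 0.0489), close to the threshold. Not called were Cdc6 with 0.79 (adjusted p = 0.0599), E2f1 with 0.61 (adjusted p = 0.057), Gins2 with 0.53 (adjusted p = 0.142), Cdt1 with 0.47 (adjusted p = 0.0568), Tyms with 0.28 (adjusted p = 0.0982) and Slbp with -0.08 (adjusted p = 0.466).

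In SI the same fit called 0 members, as did DESeq2, where 0.037% of 16236 genes were called higher and 0.0185% lower. At an unadjusted p under 0.05 there was 1 member higher and 0 lower (2.83% and 3.94% of all genes), and 40 of 42 were above 0 (50.9% of all genes) with a median of 0.15. Without 9S/T-A SI library 2 the median was 0.28, 42 of 42 were above 0 and 24 had an unadjusted p under 0.05, but none was called. Whether the difference between the sexes differed between SI and colon was not tested. The 12 colon libraries come from 6 numbers, 3 of each sex, so sex and anything else that a number marks cannot be told apart. When the counts of both genotypes were summed by number, which leaves 3 male against 3 female units, 0 members were called in colon (8 of 18466 genes in all), with 33 at an unadjusted p under 0.05 and a median of 0.50. Leaving out a colon library gave 4 calls without 9S/T-A library 4, 6 or 7 or WT library 3 or 6, and 5 without 9S/T-A library 5. It gave 8 without WT library 5 or 7, and 9 without 9S/T-A library 3 or WT library 2. Without 9S/T-A library 2 or WT library 4, and with DESeq2, there were more calls than in the main fit (see the closing section). Total counts were 44.7 to 60.5 M in male and 48.7 to 65.2 M in female colon libraries. The genes of G2 phase and mitosis were all above 0 in males in colon (30 of 30, median 0.41), the stem cell genes had a median of -0.16, the genes of the sorted population of 0.27, the absorptive genes of 0.12, the enteroendocrine genes of 0.25 and the tuft genes of -0.29, with 0 called in each list. The Paneth genes had 0.19, with 1 of 6 called lower. The part of these lists was not tested.

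**Figure D5:**
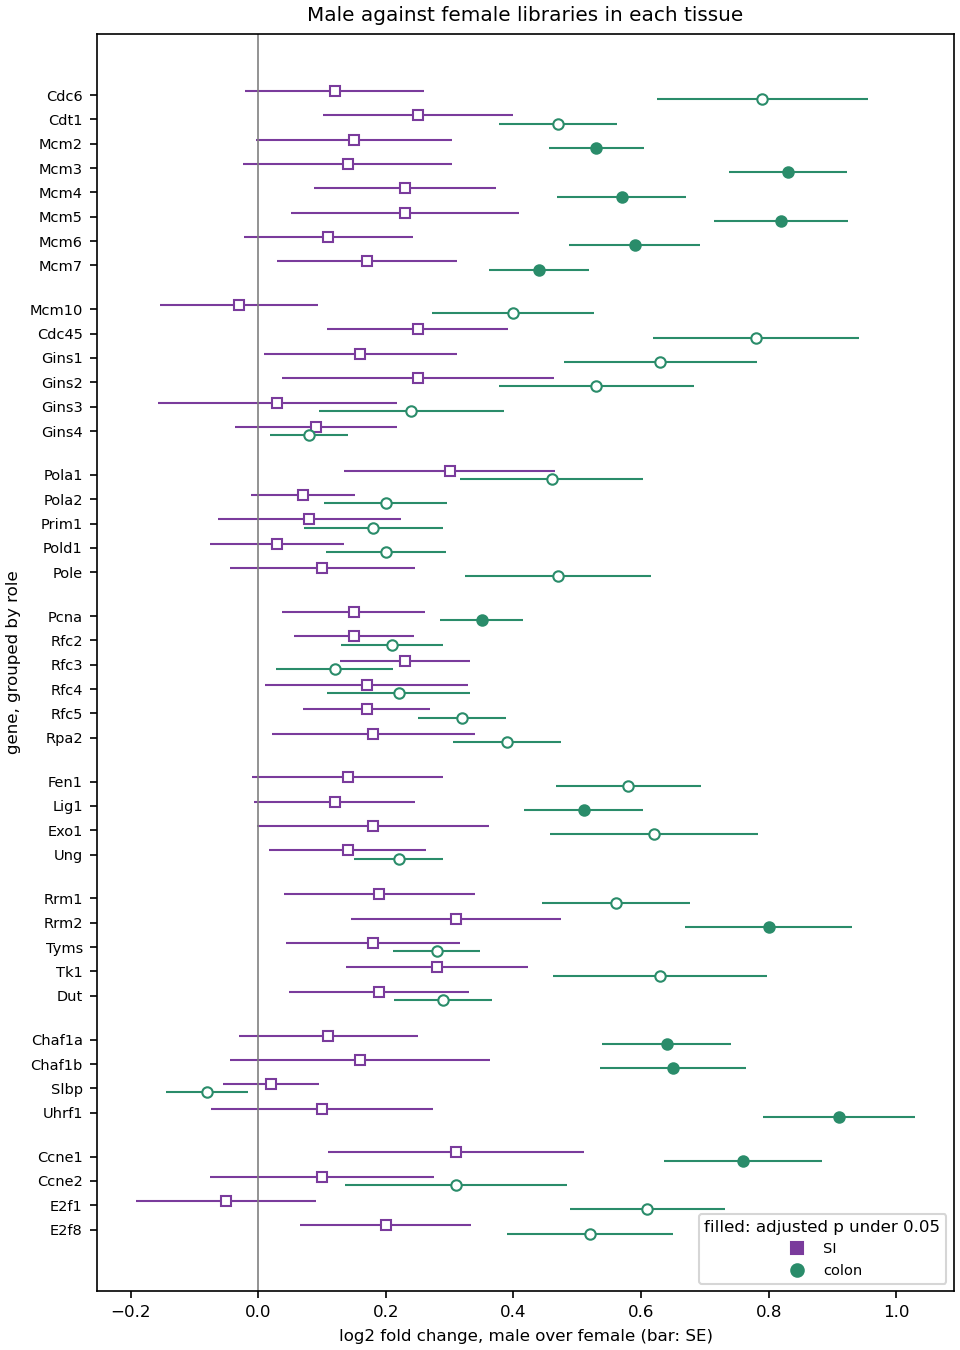
Log2 fold change of male over female libraries with genotype in the model (x axis, bars are SE) for the 42 members, grouped by role on the y axis, in SI (squares) and colon (circles), with 6 libraries per sex in each tissue and filled symbols for an adjusted p under 0.05. The 13 filled symbols are all in colon and above 0, and they include Mcm2 to Mcm7.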

How the data were processed

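Messenger RNA was sequenced as stranded single-end reads. The authors aligned the reads to GRCm38 with TopHat2 2.1.1, counted primary alignments over exons by strand with featureCounts (Subread 1.5.2), and deposited 1 table of raw, unscaled counts for each library. Gene symbols were taken from GENCODE M21 (97.96% of 45513 genes named), and positions from the count tables. No 2 libraries held identical counts (0 pairs).

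The quasi-likelihood test of edgeR 4.0.16 (R 4.3.3, two-sided) was applied to all genes that passed filterByExpr, with TMM scaling. Genotypes were compared in the 12 libraries of a tissue, tissues in the 12 of a genotype, and the product in all 24. Genes with a Benjamini-Hochberg adjusted p under 0.05 over all genes tested were called. SE was derived from the F statistic. CPM uses TMM factors over all 24 libraries. The fit was tested on simulated counts. Alternatives were DESeq2 1.42.0, its size factors (RLE), plain totals, no filter, sex as a covariate, the replicate number as a block, all libraries in 1 fit, and leaving out each library. The members and lists were chosen with earlier results of these data known. Full statistics are given for at most 8 called members per direction, and for Mcm2, Mcm5, Pcna, Cdc6, Cdt1, Gins2, Rrm2, Tyms, Slbp, Uhrf1, Ccne1 and E2f1 whatever their result. The comparison of the sexes and the values within each sex were added after the data were seen.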

Additional observations from a re-analysis of the deposited data

Results flagged for a closer look

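Among 172 sets of 6 libraries (42 members and their mean in 4 groups), 4 held a library whose gap to the nearest other was larger, as a share of their range, than the critical value of Dixon, and chance gives about 1 in 20. E2f1 in 9S/T-A SI library 2 had 7.05 CPM, against 4.9 CPM in the next highest library of that group. Chaf1a in WT SI library 2 had 9.85 CPM, against 12.7 CPM in the next lowest, and Pold1 in WT colon library 2 had 14.2 CPM, against 19.0 CPM in the next lowest. Slbp in 9S/T-A colon library 7 had 35.7 CPM, against 32.4 CPM in the next highest. Of these, 3 are libraries numbered 2.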

How the results depend on the processing

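The median change of the members kept its sign under the alternatives to the genotype, product and WT tissue comparisons, and calls moved more. In SI, DESeq2 called 2 members lower and leaving out 1 library gave 0 to 5. In colon, 2 were called higher with sex as a covariate. For the product term, DESeq2 and sex as a covariate each called 1, and leaving out 1 library 0 to 2. With plain library totals, WT colon had 11 members called lower and 8 higher than SI, where 14144 of 16979 genes were called. Mcm2 and Gins2 had 0.08, Pcna 0.17 and Slbp 0.55 there, and the mean difference was -0.07. The 9S/T-A colon had 33 called higher and 0 lower, where 14199 of 16938 genes were called, with a mean difference of 0.58. In the latter, Cdc6 had 0.02, Gins1 0.00, Cdt1 0.64, Mcm5 0.71, Pola2 and E2f8 0.29, Pole 0.27, Pcna 0.67, Fen1 0.26, Exo1 0.17, Rrm2 0.41, Uhrf1 0.57 and Ccne1 0.65. Small values changed sign elsewhere, with Tyms in WT at -0.01 under RLE factors and at -0.03 to 0.11 when 1 library was left out. In 9S/T-A, Slbp had -0.02 with DESeq2 and -0.03 with RLE factors, and E2f1 -0.01 with RLE factors and -0.02 with sex as a covariate. Leaving out 1 library there gave E2f1 -0.09 to 0.16, Mcm2 -0.05 to 0.17, Mcm5 -0.22 to 0.06, Slbp -0.03 to 0.03, and 4 to 10 members lower. For the sexes in SI, E2f1 had -0.11 to 0.08 and Slbp -0.01 to 0.05. In colon, 30 members were called higher in males with DESeq2, where it called 630 of 27525 genes. With plain totals 4 were called, among 18 of 16997 genes. The number was 0 with counts summed by number and 4 to 17 when 1 library was left out. The cause of these shifts was not tested beyond the scaling itself.

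The replicate block called 12 members higher in colon and 13 for the product term, against 0 without it, called 0 in SI, and gave E2f1 -0.01 in 9S/T-A between tissues. Between genotypes, not every same-numbered pair deviated together (lowest correlations of gene deviations -0.00939 in SI and 0.0171 in colon). Between tissues, all 6 same-numbered pairs of each genotype correlated above 0. They ranged from 0.0831 to 0.456 in WT and from 0.0926 to 0.545 in 9S/T-A. Pairs of unlike numbers had means of -0.0377 and -0.0517. The labels do not say what a number marks, so the main tests were not paired by it. With the block, 15 members had an unadjusted edgeR p under 0.05 between the 9S/T-A tissues, against 10 without it. The library of the same number correlated best for 2 of 6 libraries in SI, 4 of 6 in colon, 5 of 6 between the WT tissues and 6 of 6 between the 9S/T-A tissues, which is a hint from the data.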
